A study of Drosophila melanogaster with 3 samples.

Results

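Isolated ORC2 binding sites are described here, that is, places where ORC2 was found in both samples and no other such place lay within 20 kb. They were chosen by measured positions alone. A member is a peak of the authors' list for the whole series on chromosome arm 2L, 2R, 3L, 3R or X, under 500 bp wide, whose distance to the previous and to the next peak of that list on the arm is at least 20000 bp. The first and last peak of an arm needed one such distance. The rule found 547 sites among the 4162 whole-series peaks of these arms, out of 4230 on all sequences. They made up 14.5% of the 3771 peaks under 500 bp (exact binomial 95% interval 13.4 to 15.7%), and the 3224 remaining peaks of that width serve as the comparison. Among the 391 peaks of 500 bp or more, 29 (7.42%) had the same free space around them.

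ORC2 belongs to the origin recognition complex (ORC). This assembly binds chromatin before DNA synthesis begins and serves as the platform on which the replicative helicase is loaded, so its binding sites are places where replication may start. In Drosophila it follows no strict DNA consensus, and it is known to favour open chromatin such as that of active promoters.

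The cells were S2-DRSC, a male line derived from late embryos of Drosophila melanogaster, grown without synchronization and given no treatment that the labels name. Chromatin of 2 extractions was precipitated with an unpurified rabbit polyclonal antibody against full-length ORC2 and sequenced (ChIP-seq). These samples are called replicate 1 and replicate 2. The remaining sample, of input DNA, was not analysed here. On the 5 arms replicate 1 had 6550 peaks and replicate 2 had 7115, of which 2322 and 2898 belonged to no whole-series peak and are called single-replicate peaks. Read depth is unknown, since each list gives a position and the caller's score per peak and no read counts. One cell line was used, and the labels name no separate cultures for the 2 extractions, so differences between replicates may be technical only. All positions are those of FlyBase release 5. Genes and DNA sequence at the sites were not analysed here, for want of a genome and annotation of that release.

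The rule kept only whole-series peaks under 500 bp in both sets, so the isolated sites were narrow by selection. Their whole-series peaks were 18 to 492 bp wide, with a median of 169 bp and the middle 50% between 119.5 and 244.5 bp. The other peaks under 500 bp had a median of 178 bp. Inside the whole-series peak, which spans the outer edges of both replicates' peaks, the replicate 1 peak had a median width of 129 bp against 134 bp elsewhere, and the replicate 2 peak 143 bp against 146 bp. The difference of medians was -4 bp ± 1.41 (SD, n = 2 replicates), a few base pairs below the other peaks in each replicate. It turned to 3.75 bp when only peaks under 250 bp were compared, so no direction is given for width. The widest isolated sites were at X, 8035862 to 8036353 (492 bp, score 7.35), X, 5907185 to 5907675 (491 bp, score 3.77) and 3R, 7283630 to 7284116 (487 bp, score 3.71). The narrowest were at 3R, 913004 to 913021 (18 bp), 2L, 15118185 to 15118212 (28 bp) and 3L, 6068618 to 6068646 (29 bp). At these 3 the replicates' peaks shared only 2, 3 and 1 bp.

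The free space around the sites was often far above the limit. The distance to the nearer neighbour ran from 20019 to 507532 bp, with a median of 34142 bp and quartiles of 25996 and 53539 bp. For 217 sites it was under 30 kb, for 178 it was between 30 and 50 kb, for 121 between 50 and 100 kb, and for 31 it was at least 100 kb. Just inside the limit lay 3 sites on 3L, at 11176951 (nearer neighbour 20019 bp away, score 2.62), 14104626 and 14124851 (20043 bp apart, scores 6.81 and 5.64). Just outside it lay peaks at 3L, 19591863 (19987 bp, score 3.55), 3L, 16151448 (19968 bp, score 3.06) and 3R, 21452884 (19860 bp, score 3.36). These distances were what the sites were selected on, and they are given as a description.

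The most isolated sites lay on 3L, near the end of the arm that faces the centromere. The site at 3L, 24021345 to 24021626, had 769410 bp of free space before it and 507532 bp after it. It also had one of the 10 highest scores among isolated sites, 14.1, although the replicates were far apart there (8.90 in replicate 1 and 19.2 in replicate 2). Its neighbours on either side were isolated too. The last peak of the arm, at 24529158 to 24529276, scored 6.08 (6.19 and 5.96), and the peak at 23251719 to 23251935 scored 5.83 (5.97 and 5.69). At both of these the replicates' scores lay close together. Another site of this end, at 22281730 to 22281814, stood 212396 bp from its nearer neighbour and scored 4.97 (4.15 and 5.80). The last X peak, at 22256993 to 22257072, stood 363451 bp from the one before it and scored 3.19 (3.13 and 3.25).

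Among the other 5 of the 10 most isolated sites, the 2R site also lay near the end of its arm that faces the centromere. All 5 had ordinary scores. They were at 3L, 4825701 (198292 bp from the nearer neighbour, score 2.98), 2R, 432113 (185201 bp, 3.58), 2L, 17963183 (174599 bp, 4.98), X, 12097742 (174564 bp, 3.39) and X, 14547788 (171981 bp, 3.37). The X site at 12097742 was nearly as empty in the single lists, where the nearest single-replicate peak lay 176282 bp away. Across all 547 sites, score and distance to the nearer neighbour were nearly unrelated (Spearman's rho 0.038 across sites, which are not independent replicates). How much of the empty flanks short reads can cover was not tested.

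Isolated sites were spread over all 5 arms at similar densities. There were 109 on 2L, 100 on 2R, 114 on 3L, 129 on 3R and 95 on X, or 4.75, 4.74, 4.65, 4.63 and 4.24 per Mb. They made up between 13.2% (3R, exact binomial 95% interval 11.1 to 15.5%) and 16.1% (2L, 13.5 to 19.1%) of the peaks under 500 bp of an arm, and the intervals of all 5 arms overlapped. Each arm was also divided into 5 equal stretches counted from its centromere end. The share that was isolated was 16.9% in the stretch next to the centromere, 12.9%, 14.0% and 13.4% in the next ones and 15.8% at the far end. By arm, the share next to the centromere was 25% on 3L and 22.2% on 2R, but 11.3% on X. On X the far end had the highest share, 21.8%, where 27 of its 95 isolated sites lay.

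Isolated sites often followed one another along an arm. The rule itself favours this, since a neighbour of an isolated site already has free space on one side, and the counts are given as a description only. Of the 547, 201 had none next to them, 274 had one on one side and 72 had one on both sides. Counted as runs of consecutive peaks, there were 55 runs of 3 or more, holding 182 sites, and no run was longer than 5. The 3 runs of 5 were at X, 690515 to 1293885 (scores from 3.13 to 14.7), 2L, 17472943 to 17963392 (scores from 2.41 to 12) and 3L, 6209581 to 6543851 (scores from 3.72 to 6.70). The first of these spread 5 sites over 603371 bp, and its members differed widely in score.

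Scores were slightly higher at isolated sites in the middle of the distribution and clearly so at its upper end. The score is a number per peak from the authors' caller, with no stated unit, and it did not enter the rule. The median was 3.73 at isolated sites and 3.51 at other peaks in replicate 1, and 3.91 and 3.78 in replicate 2. The difference of medians was therefore 0.219 and 0.133, or 0.176 ± 0.0611 (SD, n = 2 replicates). Both replicates put isolated sites higher. The SD is only the spread between these 2 differences, taken over the same peaks, and does not measure the sampling of sites. Regions of the same samples are not replicates, and no test across them was made. The gap widened upwards in both replicates. The 90th percentile was 7.35 against 5.97 in replicate 1 and 7.88 against 6.63 in replicate 2, and the 95th was 8.79 against 7.18 and 10.1 against 8.06. Replicate 1 and replicate 2 both scored at least 8 at 32 of 544 isolated sites (5.88%, exact binomial 95% interval 4.06 to 8.20%) and at 82 of 3203 other peaks (2.56%, 2.04 to 3.17%).

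**Figure D1:**
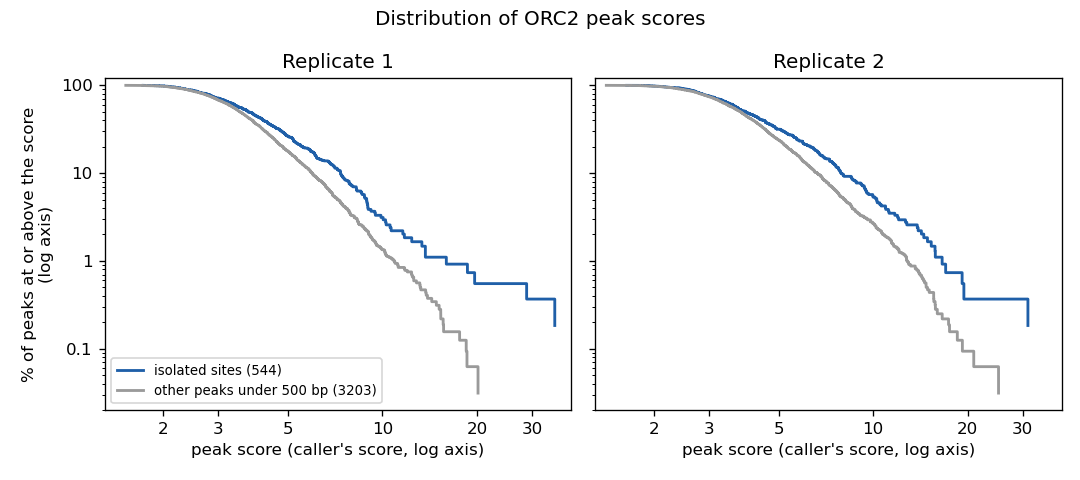
Percent of peaks at or above each score (both axes logarithmic) in replicate 1 and replicate 2, for 544 isolated sites (blue) and 3203 other peaks under 500 bp (grey) with exactly 1 peak of each replicate. The curves run together at low scores and part above the median, with 90th percentiles of 7.35 and 5.97 in replicate 1 and 7.88 and 6.63 in replicate 2.

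Read from the other side, isolated sites held more of the highest scores than of all peaks. Among the 100 peaks under 500 bp with the highest score, 27 were isolated when ranked by replicate 1 (27.0%, interval 18.6 to 36.8%) and 25 when ranked by replicate 2 (25%, 16.9 to 34.7%), against 14.5% of all peaks under 500 bp. Among the 200 highest these shares were 26.5% and 24.5%. Isolated sites had the higher median in every width class. In the width classes under 100 bp, 100 to under 150 bp, 150 to under 250 bp and 250 to under 500 bp, isolated sites had medians of 3.97, 4.04, 3.81 and 3.80 in the whole-series list, against 3.63, 3.67, 3.70 and 3.59 for other peaks. With the other peaks weighted to the isolated sites' width classes, the difference of medians was 0.173.

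The arms did not share the difference alike. On X, isolated sites had a median of 4.35 in replicate 1 and 4.54 in replicate 2, which was 0.435 and 0.516 above the other X peaks. On 3L the differences were 0.396 and 0.0732, on 3R 0.309 and 0.126, and on 2R 0.112 and 0.161. On 2L they were -0.022 and 0.0583, of opposite sign in the replicates, so that no difference of medians was seen there. Without X the mean difference was 0.153 ± 0.101 (SD, n = 2 replicates). Whether arms differ was not tested. The same score recurred at several peaks of an arm, and the recurring values differed between arms. In replicate 1 such values were 3.93 on 2L, 4.31 on 2R and 3.87 on 3L. Whether the scores of different arms share one scale was not tested, and this limit also holds for rankings over all arms.

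The 10 isolated sites with the highest score were between 103 and 282 bp wide, 8 of them below the median of 169 bp, lay on all 5 arms and scored from 8.90 to 35.4 in replicate 1 and from 13.8 to 31.1 in replicate 2. Across all 547 isolated sites score and width were nearly unrelated (Spearman's rho -0.052). The strongest of each arm were at 2R, 13033255 to 13033357 (35.4 and 31.1 in replicates 1 and 2), 3R, 3172312 to 3172433 (28.8 and 13.9), 3L, 19476239 to 19476346 (19.7 and 16.6), 2L, 7856492 to 7856664 (18.7 and 13.8) and X, 1293769 to 1293885 (13.7 and 15.8). The 2R site stood above all other isolated sites in both replicates, with 99 bp of its 103 bp in both peaks. At the 3R site the replicate 1 peak was only 32 bp wide and the replicate 2 peak 122 bp. The other five were at 3R, 7947018 to 7947169 (16.0 and 15.8), 3L, 18453539 to 18453680 (11.6 and 19.5), X, 15547708 to 15547816 (12.4 and 17.0), 2L, 7641734 to 7641871 (13.4 and 14.3) and the 3L site at 24021345 described above. Of these 10, 6 had no single-replicate peak within 20 kb.

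The weakest isolated sites scored near 2 in both replicates. They were at 3L, 18961820 to 18961944 (1.93 and 1.88), 3R, 4538694 to 4538921 (1.73 and 2.16), 2L, 11358573 to 11358957 (1.87 and 2.07), X, 15520470 to 15520639 (1.8 and 2.15) and 2L, 22874981 to 22875215 (2.34 and 1.64). The X site was the next shared peak to the strong one at 15547708, 27069 bp away. Their widths ran from 125 to 385 bp.

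The distance between the replicates' scores was similar at isolated sites and elsewhere. At 544 of the 547 sites each replicate had exactly 1 peak, and these pairs were compared. Across the pairs, Spearman's rho was 0.816 at isolated sites and 0.761 at the 3203 others, and on log10 scores Pearson's r was 0.849 and 0.800. These are descriptions of peaks that share the same 2 libraries, with no p-value. The scores themselves were more spread at isolated sites, with SDs of 2.81 and 2.91 in replicates 1 and 2 against 1.79 and 2.10, and the part of this spread in the higher rho was not tested. The size of the disagreement was nearly equal. The median absolute log2 ratio was 0.24 in both sets (0.243 and 0.236), and the SD of the log2 ratio was 0.36 and 0.35.

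Scores were more than 1.5-fold apart at 63 isolated sites (11.6%, exact binomial 95% interval 9.01 to 14.6%), against 11.1% of all 4047 such pairs on the 5 arms and 11.6% of the other pairs under 500 bp. Replicate 2 was the higher at 45 of them (8.27%, against 8.2% of all pairs) and replicate 1 at 18 (3.31%, against 2.87%). These shares are near the background. More than 2-fold differences were seen at 9 isolated sites (1.65%, interval 0.759 to 3.12%) and at 29 other peaks (0.905%, 0.607 to 1.3%), and these intervals overlap.

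**Figure D2:**
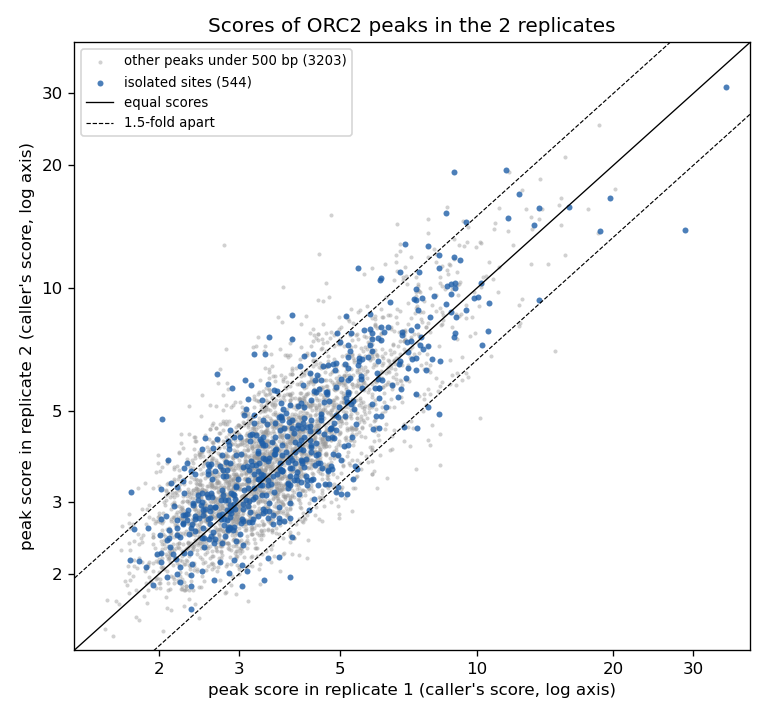
Score of each peak in replicate 1 and replicate 2 (logarithmic axes) for 544 isolated sites (blue) and 3203 other peaks under 500 bp (grey), with the line of equal scores and dashed lines at 1.5-fold. Outside the dashed lines lie 11.6% of the isolated sites and 11.6% of the others, and the highest point is the isolated site on 2R with 35.4 and 31.1.

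At most of the largest disagreements the higher score came with the wider peak. Replicate 2 exceeded replicate 1 most at 2L, 14287978 to 14288213 (2.03 and 4.79 in replicates 1 and 2, 2.36-fold), followed by 3L, 11783086 to 11783210 (2.68 and 6.15), 2L, 10408220 to 10408360 (3.93 and 8.58), X, 18737514 to 18737690 (3.49 and 7.61) and the 3L site at 24021345. At all 5 of these the replicate 1 peak was the narrower one and lay wholly inside the replicate 2 peak. Replicate 1 exceeded replicate 2 most at the 3R site at 3172312 (2.07-fold), followed by 3L, 11480660 to 11480987 (3.87 and 1.97), 3R, 7179320 to 7179523 (3.40 and 1.93), X, 16734095 to 16734203 (8.26 and 4.92) and 3R, 7916294 to 7916502 (3.67 and 2.20). At the last 4 of these the replicate 1 peak was the wider one, whereas at the 3R site at 3172312 it was the narrower. Over all isolated sites where replicate 2 was more than 1.5-fold higher, its peak was the wider one at 40 of 45, and where replicate 1 was, its peak was the wider one at 13 of 18. At other peaks these counts were 235 of 279 and 69 of 93, which are similar shares. Among all isolated pairs the higher-scoring peak was the wider one at 66.9%, and among other pairs at 68.1%. The log2 ratios of score and of width had a Spearman's rho of 0.432 across isolated sites and 0.428 across the others.

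In both sets the replicates' peaks overlapped and together spanned under 500 bp by selection, so close centres were partly given. Only the comparison of the sets is described. At isolated sites the centres of the 2 peaks were a median of 15 bp apart, against 19 bp at other peaks. They were within 10 bp at 198 of 544 sites (36.4%, interval 32.3 to 40.6%), against 924 of 3203 (28.8%, 27.3 to 30.5%). The overlap covered at least 50% of both peaks at 398 sites (73.2%, 69.2 to 76.8%), against 71.5% (69.9 to 73.1%), and these intervals overlap. The smaller distance between centres was seen in 3 of the 4 width classes, with medians of 10, 12 and 14 bp against 12.5, 14 and 19 bp below 250 bp, but 43.5 against 40.5 bp from 250 to under 500 bp.

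Most isolated sites had a peak of a single list nearby, but fewer of them did than other peaks. A single-replicate peak lay within 20 kb of 404 of the 547 sites (73.9%, exact binomial 95% interval 70.0 to 77.5%), with a median distance to the nearest of 7370 bp. At other peaks under 500 bp this held for 91.1% (90 to 92.0%), with a median distance of 2872 bp. By replicate, 264 isolated sites (48.3%) had such a peak of replicate 1 and 304 (55.6%) one of replicate 2, and 164 (30%) had peaks of both. Both single lists had fewer peaks around isolated sites. The intervals of isolated and other peaks did not overlap, but they cover the counting of peaks only. A single-replicate peak can count for several of the other peaks. By the rule every other peak had a whole-series peak within 20 kb, and isolated sites had none. Single-replicate peaks were densest close to whole-series peaks, as given below. The contrast is thus tied to the selection and is a description only.

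The density of single-replicate peaks in the 20 kb on each side was close to the average of the arms. Around isolated sites it was 19.0 per Mb in replicate 1 and 24.5 per Mb in replicate 2, against arm averages of 19.5 and 24.4. Around the other peaks it was 37.6 and 51.7 per Mb, but there the flanks of neighbouring peaks overlap, and the 4844 and 6662 neighbours counted were only 1460 and 1921 distinct peaks. Around isolated sites the 415 and 534 counted were 399 and 518 distinct peaks. Within 2 kb of an isolated site, however, the density was 37.9 per Mb in replicate 1 (83 peaks) and 57.6 per Mb in replicate 2 (126 peaks), or 1.94 and 2.36 times the arm average. In the 2 kb bins from 6 to 20 kb away it ran from 10.5 to 19.7 per Mb in replicate 1. In replicate 2 it ran from 16.9 to 23.3 per Mb there. These values were near or below the average. In both lists single-replicate peaks were thus densest in the first 2 kb, as they also were around other peaks, at 60.6 and 89.7 per Mb. A single-replicate peak within 1 kb was found at 112 isolated sites (20.5%, interval 17.2 to 24.1%), less often than at other peaks (29.1%, 27.5 to 30.7%).

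**Figure D3:**
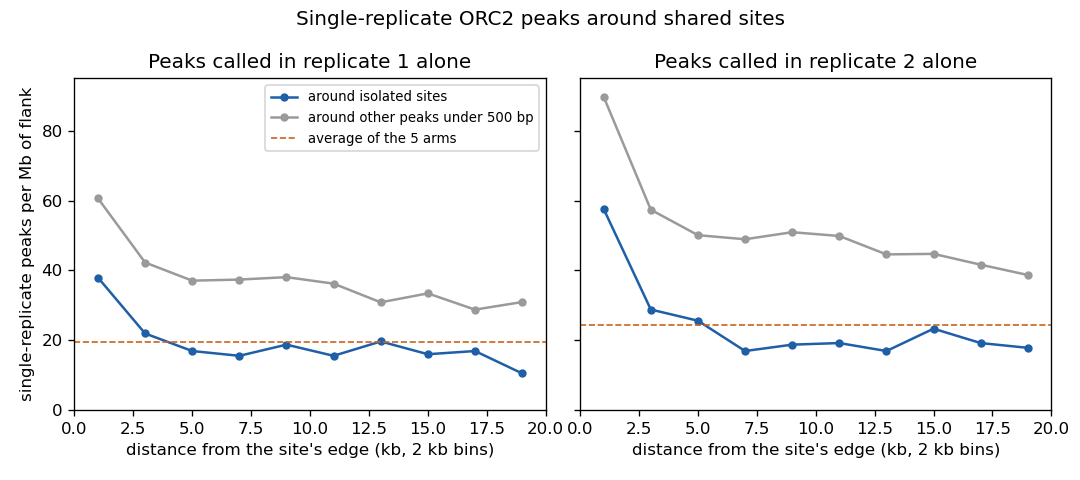
Single-replicate peaks per Mb of flank, in 2 kb bins of distance from the edge of a site, around isolated sites (blue) and other peaks under 500 bp (grey), for replicate 1 (left) and replicate 2 (right). The dashed line is the average of the 5 arms, 19.5 and 24.4 per Mb. The first bin holds 37.9 and 57.6 per Mb around isolated sites, and the bins beyond 4 kb lie near or below the average.

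Single-replicate peaks near isolated sites were narrow. Their median width was 48 bp in replicate 1 (399 peaks) and 54 bp in replicate 2 (518 peaks), against 52 and 58 bp near the other peaks. Where a single-replicate peak of the same replicate was near, the isolated site's own peak was wider than all of them at 210 of 263 sites in replicate 1 (79.8%) and 238 of 302 in replicate 2 (78.8%). It had a higher score than all of them at 139 (52.9%) and 134 (44.4%). At other peaks the shares were 75% and 70.6% for width and 49.6% and 42.5% for score, so the same pattern was seen there. The sites with most neighbours of this kind were 2L, 21096706 to 21096991 (5 from replicate 1 and 4 from replicate 2, score 3.39), 2R, 7712698 to 7712849 (4 and 4, score 2.63), X, 17193770 to 17193868 (2 and 5, score 7.34), 3L, 4541633 to 4541792 (4 and 3, score 7.02) and X, 531005 to 531224 (1 and 6, score 5.71).

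No peak of any list lay within 20 kb of 143 isolated sites (26.1%, interval 22.5 to 30%). These had a median score of 4.06 in replicate 1 and 4.04 in replicate 2, against 3.67 and 3.87 at the 404 isolated sites with a single-replicate peak nearby. Their 90th percentiles were 8.52 and 9.99, against 6.85 and 7.61. The upper scores were thus higher in both replicates. The medians were higher too, by less in replicate 2, and no test was made. Scores were over 1.5-fold apart at 13 of the 143 (9.09%, interval 4.93 to 15.0%). The strongest of these lone sites were at 3R, 3172312, and 3L, 19476239, whose nearest single-replicate peaks lay 35868 and 33413 bp away.

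**Figure D4:**
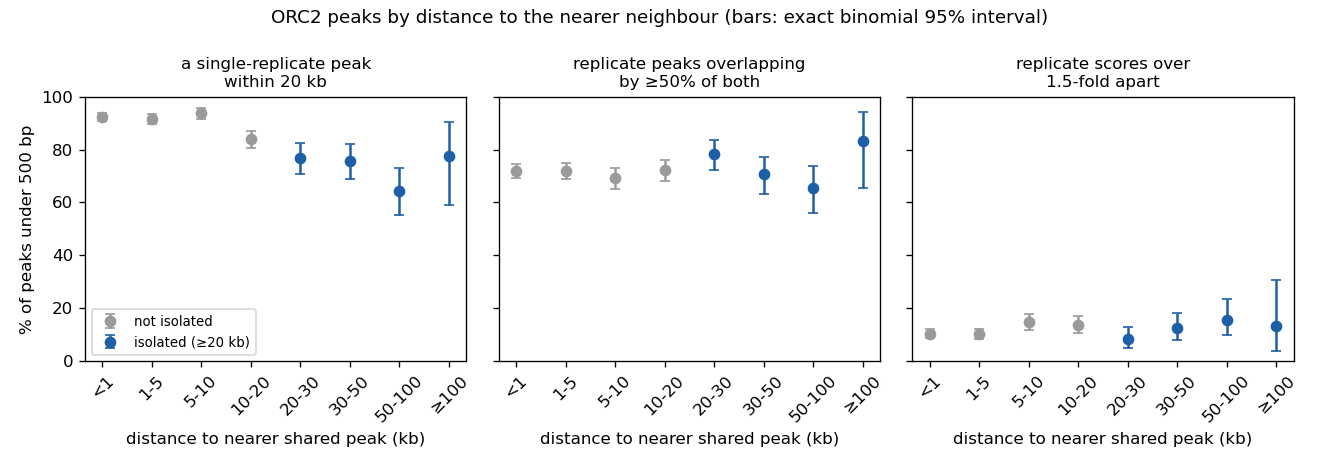
Percent of peaks under 500 bp with a single-replicate peak within 20 kb (left), with replicate peaks overlapping by at least 50% of both (middle) and with replicate scores over 1.5-fold apart (right), by distance to the nearer whole-series peak. Points are shares with exact binomial 95% intervals, blue for isolated sites. The first share is 92.4% under 1 kb and 64.5% from 50 to 100 kb, whereas the other shares show no steady trend.

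By distance, a single-replicate peak within 20 kb was found for 92.4% of peaks whose nearer neighbour was under 1 kb away, 84.1% at 10 to 20 kb, 77.0% at 20 to 30 kb, 75.8% at 30 to 50 kb and 64.5% at 50 to 100 kb. Among the 31 sites whose nearer neighbour was at least 100 kb away, arm ends included, it was 77.4%, with an interval of 58.9 to 90.4%. The share with scores over 1.5-fold apart was 8.33% at 20 to 30 kb, 12.4% at 30 to 50 kb and 15.7% at 50 to 100 kb, with overlapping intervals. Median scores in replicates 1 and 2 were 3.71 and 3.87 at 20 to 30 kb, 3.63 and 3.67 at 30 to 50 kb, 4.17 and 4.32 at 50 to 100 kb and 3.64 and 4.34 from 100 kb on. Within the isolated sites the median scores thus showed no steady order by distance. The 90th percentile of the whole-series score already rose among peaks that were not isolated, from 6.01 under 1 kb to 6.58 at 10 to 20 kb. It was 7.05 at 20 to 30 kb, 7.40 at 30 to 50 kb, 8.76 at 50 to 100 kb and 7.29 from 100 kb on. Higher upper scores were thus not confined to distances above the limit.

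All whole-series peaks are present in both replicates by construction, so agreement on presence was asked of the single lists. A peak under 500 bp was taken as isolated in its own list when its neighbours in that list were at least 20000 bp away. In replicate 1, 286 of 575 such peaks (49.7%, exact binomial 95% interval 45.6 to 53.9%) were overlapped by a replicate 2 peak, against 64.6% (63.3 to 65.8%) of the other peaks under 500 bp. In replicate 2, 250 of 479 (52.2%, 47.6 to 56.7%) were overlapped by a replicate 1 peak, against 58.0% (56.8 to 59.2%). In both lists a peak standing alone was found again less often than a peak with neighbours, and the intervals did not overlap. When the overlap had to cover at least 50% of both peaks, the shares were 36.5% against 44.4% in replicate 1 but 40.9% against 40.1% in replicate 2, so the direction turned in replicate 2.

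By width class, lower shares were seen under 100 bp, and their intervals lay apart only in replicate 1. Of own-list isolated peaks under 50 bp, 12.9% of replicate 1 and 10.3% of replicate 2 were found again, against 22.5% and 17.5% of other peaks, and the intervals overlapped in replicate 2. From 50 to under 100 bp the shares were 33.5% against 51.0% in replicate 1, but 40.7% against 43.0% in replicate 2, where the intervals overlapped again. From 100 to under 200 bp they were 87.4% against 86.3% and 77.9% against 78.0%, and from 200 to under 500 bp they were 94.7% against 92.9% and 88.2% against 90.1%. Isolated peaks of at least 100 bp were thus found again at shares near those of other peaks in both lists, with overlapping intervals. Isolated peaks found in the other replicate had median scores of 3.84 and 4.13 in replicates 1 and 2, and those not found 3.49 and 3.89. For other peaks the medians were 3.52 and 3.77 when found and 3.10 and 3.26 when not, so the same direction was seen there.

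**Figure D5:**
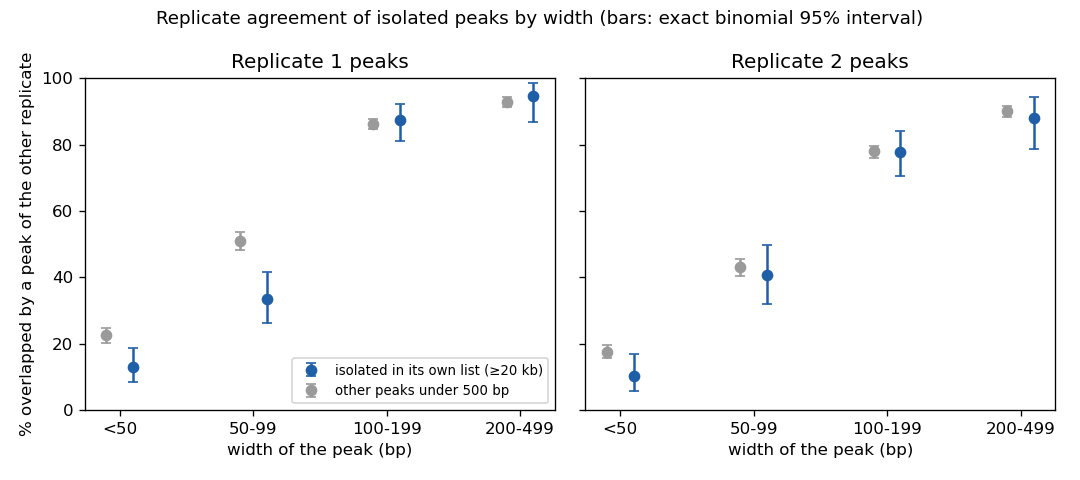
Percent of peaks overlapped by a peak of the other replicate, by peak width, for peaks isolated in their own list (blue) and other peaks under 500 bp (grey), with exact binomial 95% intervals, in replicate 1 (left) and replicate 2 (right). Under 50 bp the isolated peaks lie at 12.9% and 10.3%, and from 200 to under 500 bp at 94.7% and 88.2%, close to the other peaks.

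Isolation therefore depended on the list in which it was asked. Of the 544 isolated sites with 1 peak of each replicate, 144 (26.5%) were also isolated in both single lists, 238 in one of them, and 162 (29.8%) in neither. In the replicate 1 list 282 of the 544 were isolated and in the replicate 2 list 244, and both counts include the 144.

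Arms ended in isolated sites at 8 of their 10 first or last peaks. Free space on a single side, which is all that these needed, is more common than on both. Among the other peaks under 500 bp the upper quartile of the distance was 19267 bp to the previous peak and 19346 bp to the next. The share of all peaks with such space on a single side was not counted, so the 8 are a description only. On 2L the last peak, at 22960963 to 22961230, scored 5.89 and 7.76 in replicates 1 and 2. On 2R the first, at 18375 to 18491, scored 3.23 and 6.92, and the last, at 21102827 to 21102998, 4.79 and 3.68. On 3R the first, at 22866 to 23077, scored 5.42 and 4.66, and the last, at 27878318 to 27878406, 3.87 and 5.19. On X the first, at 139856 to 140003, scored 3.72 and 3.59. These and the last peaks of 3L and X given above needed free space on one side only.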

How the data were processed

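Chromatin immunoprecipitation with sequencing was done on 2 ORC2 samples of S2-DRSC cells and 1 input sample. Per the file headers, peaks came from PeakSeq on FlyBase release 5, and the authors deposited a score per peak with no statement of its reference. Not given in the sources used here are the aligner, the threshold, the version of the caller and its control. The whole-series list was checked at the isolated sites: at 544 of 544 sites with 1 peak of each replicate it spanned their outer edges and its score was their mean within 1e-05; at the other 3 sites peaks had been merged.

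Distances run from the end of a peak to the start of the next. Overlap means at least 1 bp. Arm lengths end at the last base of any peak. Regions are not replicates, so sets were described by medians in each replicate, with the SD over the 2 replicates, and by shares with exact binomial 95% intervals, which cover the counting of peaks only; no tests were run. Peaks near each other are not independent. The functions were tested on simulated data. Sites were named by rule: extremes of score, width, distance, replicate ratio and number of single-replicate peaks, those at the limit, and the ends of arms. Members, rules and alternatives were chosen with earlier results of these data known. Comparisons with genes and base composition were not run, because the gene table at hand is of release 6. Analyses ran in Python 3.11.15 (pandas 2.3.3, numpy 2.4.6), intervals came from scipy 1.17.1 and plots from matplotlib 3.10.9.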

Additional observations from a re-analysis of the deposited data

How the results depend on the processing

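The alternatives were other distances (10000 and 50000 bp), distances between centres, single-replicate peaks as neighbours, no width limit or 250 bp, the 50% of peaks with the highest score, the arms without X, and each replicate alone. For the 50% of peaks with the highest score, distances were measured again among those peaks alone. A site isolated there could have a weaker shared peak within 20 kb, so these sites are not a subset of the 547. Measuring between centres changed none of the results by more than the spread or interval of the value. The number of isolated sites, 547, became 1069 at 10000 bp, 152 at 50000 bp and 143 when peaks of either replicate counted as neighbours. Among the 50% highest scores it was 632. The difference of median scores, 0.176, was positive under every alternative: 0.579 at 50000 bp, 0.392 with peaks of either replicate as neighbours, 0.102 among the 50% highest scores, and 0.133 to 0.219 with one replicate left out. The 50% highest scores were filtered on the score itself, and there the difference was 0.0423 in replicate 1 and 0.163 in replicate 2. The difference of median widths, -4 bp, was -10.5 bp at 10000 bp, -14.5 bp at 50000 bp, -5.75 bp with peaks of either replicate as neighbours, -10 bp with no width limit, -11.8 bp among the highest scores and -2 bp without X, and reversed to 3.75 bp under 250 bp; it was -5 to -3 bp with one replicate left out. The share over 1.5-fold apart, 11.6%, moved to 15.2% at 50000 bp and 15.9% among the highest scores, where other peaks had 11.5% and 14.3%. The share overlapping by at least 50% of both, 73.2%, moved to 68.9% at 50000 bp, 77.6% with peaks of either replicate as neighbours and 77.8% among the highest scores. The share with a single-replicate peak within 20 kb, 73.9%, moved to 78.9% at 10000 bp, 67.1% at 50000 bp and 78.2% among the highest scores, and is 0% by construction when such peaks count as neighbours; in each case other peaks were above it. The share of own-list isolated peaks found again, 51.0%, became 38.7% with overlap of at least 50% of both, 55.2% with centres within 500 bp, 54.9% at 10000 bp, 45.3% at 50000 bp and 48.4% among the highest scores (49.7 to 52.2% with one replicate left out), each a mean of both replicates below that of other peaks (42.3%, 70.0%, 61.7%, 60.7% and 55.2%); in replicate 2 with overlap of at least 50% of both it was above, at 40.9% against 40.1%. No paired analysis was made, because the 2 ORC2 samples were the only group analysed and the input sample was left out. What causes these shifts was not tested. Without read counts, scores cannot be weighed by depth.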
